A study of Mus musculus with 10 samples.

Results

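Gene expression was compared between day 17 and day 8 of the differentiation of mouse embryonic stem cells in cultures without DCI, taken here as the dexamethasone and elevated cAMP of the series title. The comparison used 4 of the 10 arrays of the study, chosen by their labels alone, which were day 8 control, day 8 with KGF, day 17 control and day 17 with KGF. KGF is keratinocyte growth factor, or FGF7, an epithelial mitogen. All 4 cultures were of the C57BL/6 strain, carried the cell type label mESCs and had entered differentiation, and no genetic change is named for them. Neither the stem cell line nor the dose of KGF and the time of its addition is stated in the labels. The title places the study in the derivation of alveolar type II cells, and days 8 and 17 are 2 of its 3 time points. Each condition had 1 array, so each day was read on 2 arrays, a control culture and one with KGF, and the 2 differences between days were matched by KGF status.

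Stem cells that differentiate form, over the first days, primitive blood, endothelium, early mesoderm and visceral endoderm, much as the early embryo and its yolk sac do. Primitive red cells carry embryonic globins, macrophages arise from yolk sac progenitors, and the visceral endoderm secretes many of the plasma proteins that the fetal liver makes later. As differentiation goes on, proliferation slows, and supporting tissues, muscle, epithelia and neurons appear.

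Values were on the log2 scale, so that a difference of 1 is a 2-fold change. Differences are day 17 minus day 8, given as the mean of the 2 matched pairs with its standard error (SE), and 18193 genes were tested. In each pair of values the control culture comes first and the KGF culture second. Precision is limited by the number of arrays, with a median SE of 0.13, and an exact two-sided permutation test of 2 against 2 arrays cannot go below p = 0.333, so that the tests rest on a limma model whose spread comes from all 10 arrays. The 2 arrays of a day were close, with a median absolute difference between genes of 0.14 at day 8 and 0.12 at day 17, against 0.31 between the days in the control cultures and 0.28 with KGF. One array, the day 8 control, differed from the rest in its RNA control signals. The difference between the 3′ and 5′ probe sets was 1.05 for Actb there and 0.46 on the day 8 KGF array, and for the dap spike-in it was 4.80 against 1.75. Its part in the results was not tested beyond refits without it or with the dap signal as a covariate. Without that array 6588 genes passed.

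Of the 18193 genes, 7799 (42.9%) passed at an adjusted p under 0.05. They divided into 3863 higher at day 17 (21.2%) and 3936 lower (21.6%), and 3 of the 7799 had pairs of opposite sign. Large changes were more often rises. Of all genes, 263 passed and were at least 8-fold higher (1.45%), against 35 at least 8-fold lower (0.192%). These shares are the background against which the gene groups are read. The difference of the median gene was -0.01. Without a test, the values of the 2 days did not overlap in 6024 genes higher at day 17 and 6431 lower. A lack of overlap was therefore common among the 18193 genes and does not by itself set a gene apart.

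The gene with the greatest rise was Saa3, an acute-phase serum amyloid that macrophages and epithelia secrete. Saa3 read 4.12 and 4.21 at day 8 and 13.02 and 12.77 at day 17, a rise of 8.73 ± 0.08 (SE, 424-fold, adjusted p = 2.4e-13). Both day 17 arrays lay far above both day 8 arrays. Cym, the milk-clotting protease chymosin, read 3.89 and 4.02 at day 8 and 12.47 and 12.42 at day 17 and rose by 8.49 ± 0.57. Fabp4, the fatty acid carrier of adipocytes and macrophages, rose from 2.86 and 2.75 to 11.01 and 10.93, by 8.17 ± 0.08. The other probe sets of Fabp4 gave rises from 0.26 to 7.18. Mgp, the matrix Gla protein that restrains calcification of cartilage and vessels, rose by 8.04 ± 0.11. The rest of the 15 largest rises held the complement genes C1qa, C1qb, C1qc and C1s1, the lysozymes Lyz1 and Lyz2, and Ms4a7, a membrane protein of macrophages. It also held Alb, Fabp1 of liver and gut, Aldh1a1, which makes retinoic acid, and Cyp2f2, a cytochrome P450 of airway club cells.

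The 15 largest falls began with 3 embryonic globins. Hba-x, the embryonic alpha-like globin zeta, read 13.68 and 13.67 at day 8 and 5.96 and 5.20 at day 17, and fell by 8.09 ± 0.20 (SE, 273-fold, adjusted p = 2.63e-10). Both day 8 arrays read near the top of the scale. Tdo2, the tryptophan dioxygenase, read 8.12 and 8.25 at day 8 and 2.85 and 2.42 at day 17 and fell by 5.55 ± 0.22. The other 2 probe sets of Tdo2 gave smaller falls, between -1.44 and -1.31. Nepn (nephrocan), which inhibits TGF-beta signalling in early endoderm, fell by 5.09 ± 0.26. Lhx2, a LIM homeodomain factor, fell by 4.36 ± 0.25. Hsd11b2, which inactivates glucocorticoids, read 11.50 and 11.73 at day 8 and 7.44 and 7.20 at day 17 and fell by 4.30 ± 0.16. Has2, the hyaluronan synthase of the early heart and mesenchyme, fell by 4.001 ± 0.17, and its other probe set gave -4.03. Pyy, a gut peptide hormone, fell by 3.76 ± 0.16, Fndc3c1 by 3.65 ± 0.17 and Slc18a2, the vesicular monoamine transporter, by 3.61 ± 0.14. The values of the 2 days did not overlap in any of these genes, which were chosen by the size of their change.

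**Figure D1:**
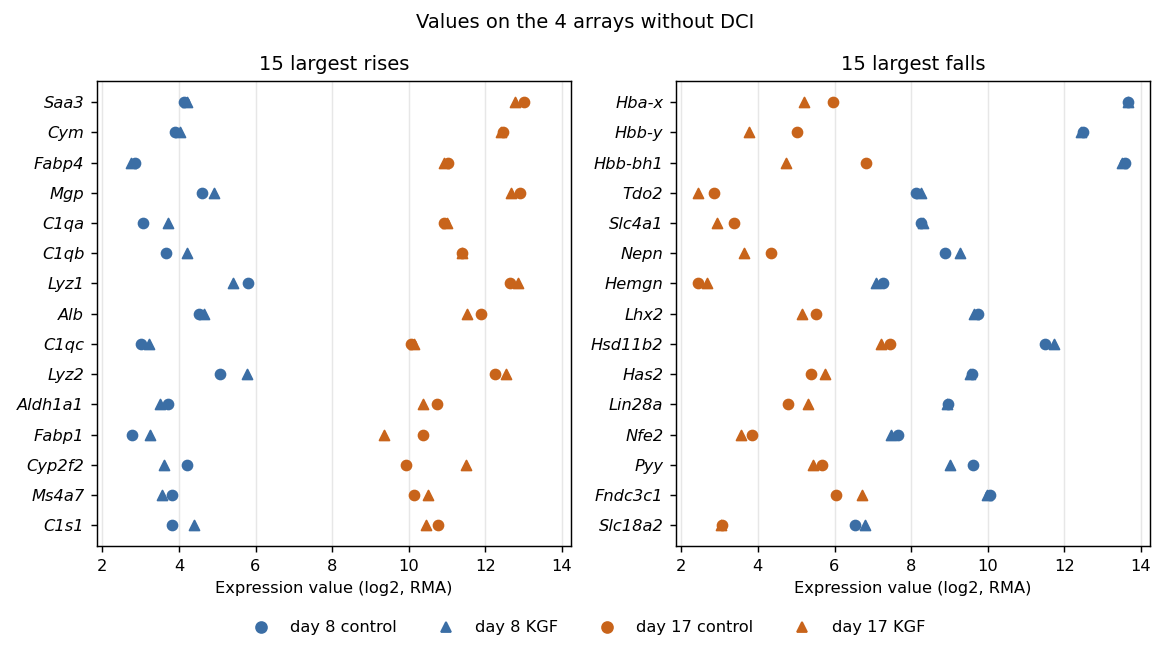
Log2 values of the 15 genes with the largest rises (left) and the 15 with the largest falls (right) on the 4 arrays without DCI. Circles are control and triangles KGF cultures, blue is day 8 and orange day 17. The genes were chosen by the size of their change, so that the 2 days lie apart in each. Saa3 moves from 4.12 and 4.21 to 13.02 and 12.77.

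Macrophage genes had the highest median difference of the 49 lists. Of 28 measured members, 27 passed as higher and 0 as lower, and the median was 4.68 against -0.01 over all genes. Csf1r, the receptor for the growth factor of macrophages, read 6.94 and 6.98 at day 8 and 11.81 and 11.78 at day 17, a rise of 4.84 ± 0.10 (SE, 28.6-fold, adjusted p = 6.6e-11). Adgre1, a surface receptor used as a marker of mouse macrophages, read 3.68 and 3.71 at day 8 and 9.48 and 9.46 at day 17 and rose by 5.77 ± 0.18. Cd68, a lysosomal protein of phagocytes, rose by 4.66 ± 0.15, from 4.62 and 4.57 to 9.15 and 9.37. The control and KGF arrays of a day differed little in these 3 genes, and the days did not overlap. C1qa, 1 of 3 chains of the first complement component that macrophages secrete, read 3.07 and 3.72 at day 8 and 10.92 and 11.01 at day 17 and rose by 7.58 ± 0.27, and C1qb (7.46 ± 0.25) and C1qc (6.98 ± 0.25) rose with it. Lyz2, the lysozyme of myeloid cells, rose by 6.97 ± 0.22. The RNA came from bulk samples, so that fewer or more cells of a type and less or more RNA per cell cannot be told apart, here and for every cell type below.

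The complement list had 12 measured members, of which 10 were higher and 1 lower, with a median difference of 1.00. C1ra, a protease of the first component, read 3.52 and 3.24 at day 8 and 9.95 and 9.64 at day 17 and rose by 6.41 ± 0.11 (SE, 85.1-fold, adjusted p = 1.83e-11). Cfi, which inactivates C3b, rose by 4.97 ± 0.20, Serping1, the inhibitor of the first component, by 2.85 ± 0.08, and Cfp (properdin) by 3.27 ± 0.14, although the other probe set of Cfp gave -1.05. Masp1, a protease of the lectin pathway, fell by 1.40 ± 0.14. Of 29 genes of antigen presentation and the interferon response, 23 were higher and 1 lower, with a median of 1.09. H2-D1, a class I heavy chain, read 6.66 and 6.96 at day 8 and 9.99 and 9.96 at day 17 and rose by 3.17 ± 0.10. The class I heavy chain H2-K1 rose by 1.90 ± 0.07, and B2m, its light chain, by 1.84 ± 0.07. Class I genes are near copies of one another, so that their probe sets may not separate them. The interferon-induced genes Gbp2 (3.29 ± 0.15), Ifitm3 (3.09 ± 0.07) and Bst2 (3.08 ± 0.12) also rose, and Ifit2 fell by 0.66 ± 0.14.

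Genes of red cells had the lowest median difference of the 49 lists. Of 26 measured members of the erythroid list, 22 were lower and 0 higher, and the median was -1.83. Hbb-y, an embryonic beta-like globin, read 12.48 and 12.43 at day 8 and 5.03 and 3.78 at day 17 and fell by 8.05 ± 0.27 (SE, 266-fold, adjusted p = 2.26e-09). Hbb-bh1, the other embryonic beta-like globin, read 13.60 and 13.52 at day 8 and 6.82 and 4.73 at day 17 and fell by 7.78 ± 0.42. At day 17 both globins read higher in the control culture than with KGF, and both days stayed apart. Slc4a1, the anion exchanger of the red cell membrane, fell by 5.12 ± 0.16, and Hemgn, a nuclear protein of erythroid cells, by 4.63 ± 0.14. Nfe2, a transcription factor of globin genes and of platelet formation, read 7.66 and 7.47 at day 8 and 3.86 and 3.56 at day 17 and fell by 3.86 ± 0.15. The letters AGATAA, read on both strands as the core bound by GATA factors, stood in the promoter window of 9 of the 20 erythroid genes that had one (45%), and in 12.7% of the 27025 genes of the RefSeq promoter table. That window holds 250 bases before and 50 after each gene's start in GRCm38.p6.

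Megakaryocyte genes moved both ways, with 4 of 15 higher (26.7%), 7 lower (46.7%) and a median of -0.40. Itga2b, the platelet integrin subunit, read 8.39 and 8.36 at day 8 and 6.87 and 7.15 at day 17 and fell by 1.37 ± 0.12. Its partner Itgb3 fell by 1.86 ± 0.16, Gp9, of the von Willebrand factor receptor, by 1.16 ± 0.18, and Clec1b, the platelet receptor of podoplanin, by 3.35 ± 0.20. Selp (2.48 ± 0.21), Thbs1 (2.28 ± 0.28), Fermt3 (0.41 ± 0.11) and Pf4 (0.72 ± 0.20) rose. The calls of Pf4 and Fermt3 were lost without the day 8 control array or without the day 17 KGF array. Of 18 mast cell and granulocyte genes, 3 rose and 3 fell (16.7% each), against 21.2% and 21.6% of all genes. The rise of Ltf (lactoferrin), which glandular epithelium also secretes, was the largest at 3.67 ± 0.29. Ms4a2 (1.008 ± 0.13) and Hdc (1.001 ± 0.22) rose too, although the other probe set of Ms4a2 gave -0.07. Kit fell by 1.13 ± 0.18, but its other probe set gave -0.01. Prtn3 fell by 0.95 ± 0.14 and Mpo by 0.83 ± 0.17, while the mast cell protease Cpa3 (0.20 ± 0.18, adjusted p = 0.413) and the IgE receptor Fcer1a (0.02 ± 0.13, adjusted p = 0.937) did not pass. Of 16 lymphocyte genes, 2 passed, both higher (12.5%, against 21.2% of all genes), and 1 passed without the day 8 control array. The 2 were Cd79b, which rose by 1.13 ± 0.23, and Il7r, which rose by 0.58 ± 0.17. Cd3e, a chain of the T cell receptor complex, read 4.86 and 5.14 at day 8 and 5.06 and 4.95 at day 17, and Cd79a of the B cell receptor read 4.24 and 4.06 at day 8 and 4.18 and 4.12 at day 17, both with a difference of 0.00 and both in the lower part of the scale.

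Endothelial genes were mostly lower at day 17, with 17 of 25 lower, 3 higher and a median of -0.79. Kdr, the main VEGF receptor, read 9.89 and 9.80 at day 8 and 7.42 and 7.16 at day 17 and fell by 2.56 ± 0.15 (SE, 5.88-fold, adjusted p = 2.11e-07). Aplnr, the apelin receptor, read 10.77 and 10.46 at day 8 and 7.36 and 6.79 at day 17 and fell by 3.54 ± 0.12. Vwf (-3.28 ± 0.17) and the angiopoietin receptor gene Tek (-3.12 ± 0.17) fell too. Cdh5, the cadherin of endothelial junctions, fell by 0.66 ± 0.16, a call that was lost without the day 8 control or the day 17 KGF array. Pecam1, present on endothelium, platelets and leukocytes, read 5.38 and 6.21 at day 8 and 6.55 and 6.37 at day 17 and did not pass (adjusted p = 0.0913). The 3 risers were Stab1, a scavenger receptor that macrophages also carry (2.52 ± 0.14), Apln, the ligand of Aplnr (2.27 ± 0.17), and Robo4 (0.59 ± 0.20). The call of Robo4 was lost without the day 8 control array or any of the day 17 control, KGF and DCI arrays.

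The transcription factors of mesoderm were more often lower than higher, with 21 of 46 lower, 8 higher and a median of -0.41. Hand2, a factor of the heart and limb field, read 11.89 and 11.70 at day 8 and 9.10 and 8.97 at day 17 and fell by 2.76 ± 0.10. Msx2 fell by 2.13 ± 0.17, Twist2 by 2.13 ± 0.12 and Tbx5, which patterns heart and lung mesenchyme, by 1.07 ± 0.15. The risers included Osr1, of intermediate mesoderm and lung mesenchyme, which read 4.94 and 4.51 at day 8 and 9.77 and 9.31 at day 17 and rose by 4.81 ± 0.10. Prrx1 (1.82 ± 0.14), Tbx18 of the epicardium (1.75 ± 0.14), Meox2 (1.60 ± 0.18) and Tcf21 of visceral mesenchyme (0.91 ± 0.15) rose as well. One other probe set of Msx2 gave -0.08 and that of Tbx5 0.19.

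Every measured mitosis gene fell, 30 of 30, with differences between -1.51 and -0.49 and a median of -1.09. Bub1, a kinase of the spindle checkpoint, read 10.43 and 10.39 at day 8 and 9.12 and 8.92 at day 17 and fell by 1.39 ± 0.08 (SE, 2.62-fold, adjusted p = 1.85e-07). Plk1, the polo-like kinase that drives entry into mitosis, read 9.52 and 9.58 at day 8 and 8.10 and 7.98 at day 17 and fell by 1.51 ± 0.11. Espl1, the separase that cleaves cohesin at anaphase, read 8.67 and 8.54 at day 8 and 7.02 and 7.20 at day 17 and fell by 1.50 ± 0.12. In these 3 genes both day 17 arrays lay below both day 8 arrays. Aurkb (-0.92 ± 0.16) and Cdca8 (-1.38 ± 0.09), of the chromosomal passenger complex, fell too. The promoters of Plk1, on the plus strand at chr7:122159185-122159484 of GRCm38.p6, and of Espl1, on the plus strand at chr15:102296043-102296342, are shown because each holds both promoter elements of late cell cycle genes. The CCAAT box (CCAAT on either strand) and the cell cycle homology region (TTTGAA on either strand) are in capitals, in the RefSeq sequences.
Plk1: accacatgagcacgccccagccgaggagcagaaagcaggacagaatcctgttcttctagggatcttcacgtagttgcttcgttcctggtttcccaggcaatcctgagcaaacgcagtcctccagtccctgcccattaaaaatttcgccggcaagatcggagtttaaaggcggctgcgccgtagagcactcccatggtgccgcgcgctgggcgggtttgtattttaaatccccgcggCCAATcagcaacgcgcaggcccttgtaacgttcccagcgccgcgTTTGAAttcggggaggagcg
Espl1: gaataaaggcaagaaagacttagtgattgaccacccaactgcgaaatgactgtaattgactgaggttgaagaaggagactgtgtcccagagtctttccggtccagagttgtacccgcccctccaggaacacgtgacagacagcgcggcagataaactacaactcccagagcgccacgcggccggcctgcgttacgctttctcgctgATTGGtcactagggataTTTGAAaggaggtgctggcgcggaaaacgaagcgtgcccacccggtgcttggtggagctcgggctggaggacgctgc
Of the 24 mitosis genes with a promoter in the table, 18 (75%) held CCAAT against 41.1% of all genes, and 18 (75%) held TTTGAA against 20.2%. Both stood in 16 (66.7%), against 7.97% of all genes. These matches describe the letters and were not tested as sites.

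Genes of DNA replication fell with those of mitosis, 28 of 31 lower and 0 higher, with a median of -0.92. Mcm2, a subunit of the replicative helicase, read 10.77 and 10.49 at day 8 and 9.37 and 9.16 at day 17 and fell by 1.36 ± 0.09 (SE, 2.58-fold, adjusted p = 3.7e-07). Mcm5 of the same helicase fell by 1.11 ± 0.11, Cdc6, which loads it, by 1.50 ± 0.12, Rrm2, of the enzyme that makes deoxynucleotides, by 1.47 ± 0.07, and Uhrf1, which carries DNA methylation through replication, by 1.52 ± 0.09. Pcna, the sliding clamp, fell less, by 0.30 ± 0.08, and this call was lost without the day 8 KGF or without the day 17 KGF array. Of 16 genes of histones and chromatin assembly, 13 were lower and 1 higher, with a median of -0.69. The condensin genes Ncapd2 (-1.45 ± 0.10) and Ncapg (-1.19 ± 0.14) fell, as did Hmgb2 (-1.04 ± 0.08) and Lmnb1, the B-type lamin (-1.11 ± 0.13). Lmna, the lamin of differentiated cells, was the member that rose. It read 7.76 and 8.08 at day 8 and 8.72 and 8.89 at day 17 and rose by 0.89 ± 0.10, and another of its probe sets gave -0.20.

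Polycomb and DNA methylation genes had 13 of 22 lower, 1 higher and a median of -0.57. Ezh2, the catalytic subunit of Polycomb repressive complex 2, read 10.49 and 10.44 at day 8 and 9.31 and 9.29 at day 17 and fell by 1.16 ± 0.09, while its partners Suz12 (-0.15 ± 0.09, adjusted p = 0.207) and Eed (0.02 ± 0.09, adjusted p = 0.9) did not pass. Dnmt3b, a de novo DNA methyltransferase, read 8.63 and 8.56 at day 8 and 6.78 and 6.78 at day 17 and fell by 1.81 ± 0.16. Cbx2 (-1.67 ± 0.14) and Phc1 (-1.17 ± 0.09), of Polycomb repressive complex 1, fell, and Bmi1 of the same complex rose by 0.58 ± 0.09. Ribosome biogenesis genes had 13 of 26 lower and 0 higher, with a smaller median of -0.32. Utp20 fell by 0.84 ± 0.09, Nop56 by 0.61 ± 0.09 and the nucleolar methyltransferase Fbl by 0.40 ± 0.08. Nucleolin, Ncl, fell by 0.34 ± 0.06, but its other 4 probe sets ranged from -0.65 to 0.24.

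RNA-binding and fetal growth genes around Lin28 fell, 8 of 11 lower and 0 higher, with a median of -1.59. Lin28a, which blocks the maturation of let-7 microRNAs, read 8.96 and 8.94 at day 8 and 4.79 and 5.32 at day 17 and fell by 3.90 ± 0.33 (SE, 14.9-fold, adjusted p = 2.97e-06). Hmga2, a chromatin protein and let-7 target, read 11.22 and 11.44 at day 8 and 8.71 and 8.71 at day 17 and fell by 2.62 ± 0.09. Trim71, an RNA-binding ubiquitin ligase and let-7 target, read 9.16 and 9.21 at day 8 and 6.24 and 6.32 at day 17 and fell by 2.91 ± 0.12. The days did not overlap in these genes. The other probe set of Lin28a gave a smaller fall, of -1.63. The phosphatase gene Dusp9 fell by 2.71 ± 0.15. Lin28b lay near the bottom of the scale, at 2.60 and 2.59 at day 8 and 2.27 and 2.43 at day 17, and did not pass (adjusted p = 0.187).

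Plasma proteins of fetal liver and yolk sac rose, with 19 of 24 measured genes higher, 1 lower and a median of 1.98. Alb, serum albumin, read 4.53 and 4.66 at day 8 and 11.89 and 11.53 at day 17 and rose by 7.12 ± 0.11 (SE, 139-fold, adjusted p = 1.24e-11). Afp, the fetal alpha-fetoprotein, was already high at day 8 and read 10.50 and 10.81 at day 8 and 12.38 and 11.94 at day 17, a rise of 1.51 ± 0.15. Another gene of the early endoderm, Ttr (transthyretin), read 11.95 and 11.69 at day 8 and 11.81 and 12.02 at day 17 and did not pass (adjusted p = 0.761). The fibrinogen chains Fgg (4.39 ± 0.20) and Fga (3.74 ± 0.25) and the haemoglobin-binding Hp (3.81 ± 0.10) rose. Rbp4, the carrier of retinol, was the exception and fell from 11.09 and 10.97 to 9.33 and 9.16, by 1.79 ± 0.08. The promoters of Alb, on the plus strand at chr5:90460620-90460919, and of Fga, on the plus strand at chr3:83025903-83026202 (RefSeq, GRCm38.p6), are shown because each holds GTTAAT, part of the site of the liver regulator HNF1, on one of the strands, in capitals.
Alb: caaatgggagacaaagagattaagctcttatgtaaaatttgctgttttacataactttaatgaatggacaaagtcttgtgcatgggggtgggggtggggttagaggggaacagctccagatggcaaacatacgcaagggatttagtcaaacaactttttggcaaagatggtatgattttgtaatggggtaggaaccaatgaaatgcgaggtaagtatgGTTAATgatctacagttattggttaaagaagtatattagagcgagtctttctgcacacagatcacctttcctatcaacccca
Fga: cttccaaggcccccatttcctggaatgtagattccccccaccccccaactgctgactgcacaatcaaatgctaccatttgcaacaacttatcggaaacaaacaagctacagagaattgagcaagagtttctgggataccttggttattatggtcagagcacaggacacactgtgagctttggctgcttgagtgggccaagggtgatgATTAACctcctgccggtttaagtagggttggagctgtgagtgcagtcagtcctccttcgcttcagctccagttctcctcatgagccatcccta
Of the 19 genes of the list with a promoter, 7 (36.8%) held GTTAAT on either strand against 8.24% of all genes. The full HNF1 site, which contains these letters, was found in 0 of the 19 windows and in 0.074% of all genes.

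Apolipoprotein genes split by gene, with 10 of 15 higher, 2 lower and a median of 1.12. Apoa2 read 5.57 and 5.19 at day 8 and 9.24 and 8.95 at day 17 and rose by 3.71 ± 0.11, Apoc1 rose by 3.21 ± 0.10, Apobec1, the enzyme that edits the Apob transcript, by 3.79 ± 0.15, and Apoa4 by 2.04 ± 0.21. Apob itself, the structural protein of large lipoproteins, read 8.30 and 8.07 at day 8 and 7.21 and 6.96 at day 17 and fell by 1.10 ± 0.10, and Apom fell by 1.77 ± 0.20. Apoa1, the main protein of high-density lipoprotein, rose by 0.56 ± 0.13, and this call was lost without the day 17 control array. Of 17 genes of yolk sac endocytosis and transport, 8 were higher (47.1%) and 5 lower (29.4%), against 21.2% and 21.6% of all genes. Fabp1 read 2.78 and 3.26 at day 8 and 10.36 and 9.36 at day 17 and rose by 6.84 ± 0.28, the glucose transporter Slc2a2 rose by 2.71 ± 0.15, the claudin Cldn2 by 2.47 ± 0.17 and Rhox5, a homeobox gene of extraembryonic endoderm, by 1.43 ± 0.12. The sulphate transporter Slc13a4 fell by 1.58 ± 0.12 and Spink1 by 1.60 ± 0.15. Of the endocytic receptors of visceral endoderm, Cubn (0.46 ± 0.19, adjusted p = 0.0774) and Amn (0.61 ± 0.23, adjusted p = 0.0542) did not pass, and Lrp2 fell by 0.50 ± 0.17, a call lost without the day 8 control, the day 17 control or the day 17 KGF array.

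Endodermal transcription factors had 8 of 19 higher (42.1%) and 5 lower (26.3%), against 21.2% and 21.6% of all genes. These counts became 6 and 7 when the values were quantile-normalised a second time. Cebpa, of liver, lung and myeloid cells, read 4.53 and 4.49 at day 8 and 6.83 and 6.66 at day 17 and rose by 2.24 ± 0.14. The bile acid receptor gene Nr1h4 rose by 1.40 ± 0.18 and the vitamin D receptor gene Vdr by 1.003 ± 0.18. Hnf4a, a master factor of liver, rose by 0.58 ± 0.16, and its call was lost without the day 8 control or the day 17 control array. Another probe set of Hnf4a gave -0.06. Foxa2, the forkhead factor of definitive endoderm and airway, read 7.99 and 7.83 at day 8 and 6.98 and 7.20 at day 17 and fell by 0.82 ± 0.17, and Gata4 fell by 1.55 ± 0.20. Sox17 read 7.86 and 7.90 at day 8 and 7.53 and 6.92 at day 17, with a fall at the threshold (-0.65 ± 0.24, adjusted p = 0.05). Its call was lost without either day 8 array, the day 17 KGF array or either day 24 array with DCI.

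General epithelial genes had 21 of 29 higher, 6 lower and a median of 1.09. Epcam, an adhesion molecule of epithelia, read 9.36 and 9.79 at day 8 and 10.47 and 10.85 at day 17 and rose by 1.09 ± 0.07 (SE, 2.12-fold, adjusted p = 3.9e-07). Cdh1, or E-cadherin, rose by 0.67 ± 0.07. Ehf, an ETS factor of glands and airways, read 2.40 and 3.37 at day 8 and 7.56 and 8.35 at day 17 and rose by 5.07 ± 0.14, although 1 of its other 3 probe sets gave -0.17. Krt7 of simple and glandular epithelium rose by 3.31 ± 0.11 and Klf5 by 2.94 ± 0.11. The other probe sets of Klf5 gave -0.008 and 1.93. The gut galectin Lgals4 rose by 3.85 ± 0.20. Among those that fell were the desmosomal genes Dsp (-1.80 ± 0.07) and Pkp2 (-1.08 ± 0.10). Krt8, a keratin of the first simple epithelia, read 12.70 and 12.58 at day 8 and 11.37 and 11.72 at day 17 and fell by 1.09 ± 0.10, and Cldn6, a claudin of embryonic epithelium, fell by 0.76 ± 0.14.

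Genes of stratified epithelium rose, with 17 of 21 higher, 0 lower and a median of 1.48. Krt4, of the lining of the oesophagus, read 3.98 and 4.53 at day 8 and 9.52 and 9.84 at day 17 and rose by 5.43 ± 0.19 (SE, 43-fold, adjusted p = 3.39e-09). Krt15, a keratin of basal cells, read 5.57 and 5.95 at day 8 and 10.57 and 11.41 at day 17 and rose by 5.23 ± 0.20. Krt14 rose by 3.96 ± 0.14, its basal cell partner Krt5 by 2.04 ± 0.17 and the wound keratin Krt6a by 4.19 ± 0.23. Trp63, the transcription factor of basal cells, read 3.81 and 3.71 at day 8 and 5.59 and 6.66 at day 17 and rose by 2.36 ± 0.24. Its other 3 probe sets lay between -0.23 and 0.34. Intestine and stomach genes had 16 of 30 higher, 2 lower and a median of 0.84. Clca3a1 read 3.76 and 3.57 at day 8 and 9.77 and 9.22 at day 17 and rose by 5.83 ± 0.11. The secreted lectins Reg1 (3.29 ± 0.42) and Reg3g (2.88 ± 0.20) and the trefoil factor Tff1 (0.69 ± 0.15) rose, while Tff3 fell by 0.44 ± 0.14, a call lost without the day 8 control or the day 17 KGF array. Vil1, of the brush border, did not pass (-0.28 ± 0.25, adjusted p = 0.413).

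Lung and foregut genes had 14 of 33 higher (42.4%) and 7 lower (21.2%), and the median was 0.42. Nkx2-1, the factor that marks the lung and thyroid lineage, read 4.71 and 4.46 at day 8 and 4.48 and 4.77 at day 17, below the median of all values, and did not pass (adjusted p = 0.891). Sftpb, surfactant protein B, read 5.10 and 5.70 at day 8 and 5.54 and 5.38 at day 17 and did not pass (adjusted p = 0.858), and neither did Sftpc (0.68 ± 0.46, adjusted p = 0.277). Sftpd, surfactant protein D, which other mucosal epithelia also secrete, read 5.55 and 4.70 at day 8 and 7.25 and 7.87 at day 17 and rose by 2.44 ± 0.38 (SE, 5.43-fold, adjusted p = 0.000328). Aqp5, the water channel of type I cells and glands, read 4.50 and 4.12 at day 8 and 5.97 and 7.27 at day 17 and rose by 2.31 ± 0.29. Cxcl15, a chemokine of lung epithelium, rose by 3.06 ± 0.48, with a higher day 17 value in the KGF culture. Cav1, the caveolin of type I cells, endothelium and mesenchyme, read 8.14 and 8.16 at day 8 and 11.86 and 11.61 at day 17 and rose by 3.58 ± 0.07. Among the genes that fell were Foxp1 (-2.004 ± 0.11), Lpcat1, an enzyme of surfactant lipid synthesis (-1.29 ± 0.08), and Shh, the foregut endoderm signal, which read 8.13 and 8.24 at day 8 and 7.20 and 6.63 at day 17 and fell by 1.27 ± 0.21. The second probe set of Shh gave 0.02, and another of Lpcat1 gave 0.045. Motile cilium genes had 8 of 25 higher and 1 lower. Foxj1, the master factor of motile cilia, read 4.90 and 4.86 at day 8 and 5.81 and 6.64 at day 17 and rose by 1.34 ± 0.27. Dynlrb2, a dynein light chain, rose by 4.08 ± 0.51, Pifo by 2.13 ± 0.30, Tppp3 by 1.84 ± 0.25 and Rsph1, of the radial spoke, by 1.31 ± 0.24. The rise in Foxj1, Pifo and Rsph1 was seen in both pairs and read higher with KGF. The limma test of KGF dependence, described below, passed for 4 of the 33 lung and foregut and 4 of the 25 cilium genes, against 0.808% of all genes. Among them were Sftpd (adjusted p = 0.00817), Aqp5 (adjusted p = 0.0216), Cxcl15 (adjusted p = 0.0308), Pifo (adjusted p = 0.0298) and Tppp3 (adjusted p = 0.00804). All of these calls were lost without a mean trend in the variances. Rfx3, a regulator of ciliary genes, fell by 0.62 ± 0.18, a call lost without the day 8 control, the day 17 control or the day 17 KGF array.

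Skeletal muscle genes rose, with 27 of 33 higher, 0 lower and a median of 1.71. Myog (myogenin), which commits myoblasts to fuse, read 4.39 and 3.92 at day 8 and 7.24 and 9.76 at day 17 and rose by 4.35 ± 0.50 (SE, 20.4-fold, adjusted p = 3.32e-05). The embryonic myosin Myh3 read 3.73 and 3.39 at day 8 and 6.89 and 9.83 at day 17 and rose by 4.80 ± 0.58, and the perinatal myosin Myh8 read 3.24 and 3.44 at day 8 and 7.86 and 8.85 at day 17 and rose by 5.02 ± 0.23. In each of these the days did not overlap. Tnnc2, the fast troponin C, rose by 4.34 ± 0.55, and Acta1, skeletal actin, by 2.06 ± 0.33. Of the 33 genes, 30 had the larger difference in the KGF pair, and the list median was 0.78 in the control pair and 2.15 in the KGF pair. Myod1, the determination factor of myoblasts, read 5.01 and 4.51 at day 8 and 5.04 and 6.98 at day 17, so that the day 17 control value was like those of day 8, and its rise of 1.25 ± 0.42 (adjusted p = 0.0324) lost its call without either KGF array or either day 24 array with DCI. The test of KGF dependence itself was not passed by these genes, with adjusted p = 0.156 for Myod1, 0.163 for Myog, 0.143 for Myh3 and 0.133 for Tnnc2. The promoter of Acta1, on the minus strand at chr8:123894726-123895025 (RefSeq, GRCm38.p6), is shown with its CArG box, the site of serum response factor, in capitals.
Acta1: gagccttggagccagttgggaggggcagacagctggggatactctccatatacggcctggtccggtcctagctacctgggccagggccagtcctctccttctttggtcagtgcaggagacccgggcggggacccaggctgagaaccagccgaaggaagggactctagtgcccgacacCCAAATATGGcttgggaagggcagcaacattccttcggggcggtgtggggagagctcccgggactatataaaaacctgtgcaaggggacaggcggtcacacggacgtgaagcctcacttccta
A CArG box stood in 1 of the 23 skeletal muscle genes with a promoter (4.35%), 4 of 27 heart genes (14.8%) and 1 of 19 smooth muscle genes (5.26%), against 1.81% of all genes.

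Heart genes moved both ways, with 12 of 31 higher (38.7%) and 9 lower (29%), against 21.2% and 21.6% of all genes. The sarcomere genes Myh6 (0.82 ± 0.11) and Tnni3 (2.09 ± 0.15) rose. Sln, an inhibitor of the calcium pump, rose by 2.82 ± 0.24, although its other probe set gave -0.34. Tnni3, troponin I of the mature heart, read 6.76 and 6.92 at day 8 and 8.83 and 9.02 at day 17. The transcription factor Tbx20 read 9.90 and 9.68 at day 8 and 7.97 and 7.56 at day 17 and fell by 2.02 ± 0.21, and Hand1 fell by 1.74 ± 0.13. Nppb, the natriuretic peptide B, fell by 1.12 ± 0.17. Nkx2-5 (-0.16 ± 0.15, adjusted p = 0.451) and Tnnt2 (0.26 ± 0.12, adjusted p = 0.11) did not pass. Smooth muscle genes had 10 of 23 higher (43.5%) and 5 lower (21.7%), the latter near the share of all genes. Mylk, the myosin light chain kinase, read 5.57 and 5.55 at day 8 and 9.94 and 9.66 at day 17 and rose by 4.25 ± 0.10, and Myh11, smooth muscle myosin, rose by 1.83 ± 0.22. The other probe set of Myh11 gave 0.06, and another of Mylk gave 0.85. Casq2 rose by 2.98 ± 0.27, the small heat shock protein gene Hspb1 by 2.81 ± 0.07 and phospholamban, Pln, by 2.70 ± 0.14. Acta2, smooth muscle actin, read 13.05 and 13.002 at day 8 and 11.88 and 12.26 at day 17 and fell by 0.95 ± 0.10, and Myocd, the cofactor of serum response factor, fell by 1.74 ± 0.18. Tagln read 11.30 and 11.42 at day 8 and 11.42 and 11.44 at day 17 and did not pass (adjusted p = 0.509).

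**Figure D2:**
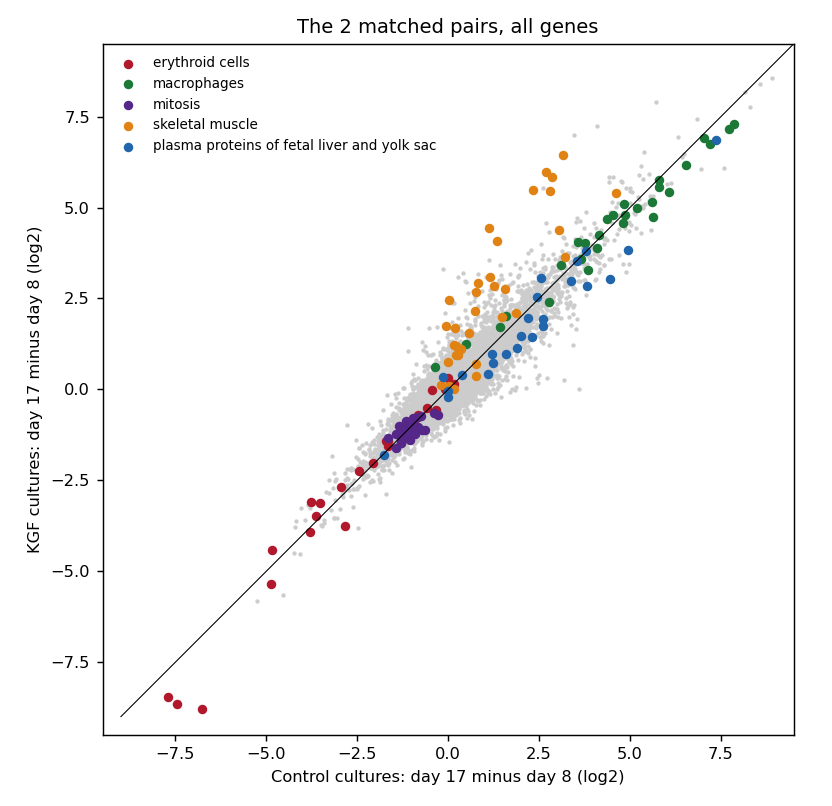
Difference from day 8 to day 17 (log2) of each of 18193 genes in the control cultures (x axis) and the KGF cultures (y axis), with members of 5 gene lists coloured and the line of equal difference drawn. In the mean of the 2 pairs, macrophage genes run from 0.12 to 7.57 (median 4.68) and erythroid genes from -8.09 to 0.16 (median -1.83). Mitosis genes lie below 0 in both pairs, and 30 of 33 skeletal muscle genes lie above the line.

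Fibrillar matrix genes rose, with 26 of 34 higher, 5 lower and a median of 1.76. The small leucine-rich proteoglycan Bgn (biglycan) read 5.98 and 5.99 at day 8 and 11.19 and 11.29 at day 17 and rose by 5.26 ± 0.07 (SE, 38.2-fold, adjusted p = 3.01e-12). Ogn, or osteoglycin, rose by 5.34 ± 0.10. Lox, the enzyme that crosslinks collagen, read 6.64 and 6.89 at day 8 and 11.76 and 11.74 at day 17 and rose by 4.99 ± 0.10, and Thbs2 rose by 4.26 ± 0.15. Col1a1, of type I collagen, rose by 2.05 ± 0.13 and Col3a1, already near the top of the scale, by 0.39 ± 0.06. The 5 that fell were Postn, or periostin (-1.86 ± 0.09), Vcan, the proteoglycan of loose embryonic matrix (-1.51 ± 0.13), Col5a1 (-0.77 ± 0.10), the fetal fibrillin Fbn2 (-0.46 ± 0.11) and Fn1 (-0.20 ± 0.07). The call of Fn1 was kept without the day 8 control or the day 17 control array and lost without any other of the 10 arrays. That of Fbn2 was lost without the day 8 control or without the day 17 control array. Another probe set of Vcan gave 0.105 and another of Col5a1 gave 0.008.

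Basement membrane genes had 9 of 21 higher (42.9%) and 4 lower (19%), against 21.2% and 21.6% of all genes. Lama5, of the laminins of mature epithelium, read 6.81 and 6.99 at day 8 and 8.10 and 8.25 at day 17 and rose by 1.28 ± 0.10, while Lama1, the chain of embryonic laminin, read 8.38 and 8.33 at day 8 and 7.16 and 6.77 at day 17 and fell by 1.39 ± 0.31, a call lost without the day 17 KGF array. Col18a1 fell by 2.02 ± 0.10 and Frem1 by 2.48 ± 0.16. Lamb1 (0.10 ± 0.13, adjusted p = 0.576) and Lamc1 (0.03 ± 0.19, adjusted p = 0.935) did not pass. Matrix proteases and inhibitors had 12 of 20 higher and 4 lower, with a median of 0.95. Plau, the urokinase, read 4.08 and 3.72 at day 8 and 6.95 and 7.09 at day 17 and rose by 3.12 ± 0.16. The inhibitor Timp1 rose by 2.80 ± 0.10, the aggrecanase Adamts5 by 2.71 ± 0.10, the cysteine protease Ctsk by 2.24 ± 0.14 and the gelatinase Mmp2 by 1.03 ± 0.09. Adamts12 (-0.80 ± 0.16) and Mmp11 (-0.76 ± 0.14) fell.

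In the insulin-like growth factor system, 10 of 18 genes were higher and 5 lower, and the roles differed. The ligand Igf1 read 8.07 and 8.02 at day 8 and 11.38 and 11.18 at day 17 and rose by 3.24 ± 0.07 (SE, 9.42-fold, adjusted p = 6.6e-11). Igf2, the fetal ligand, read 13.79 and 13.78 at day 8 and 13.90 and 13.89 at day 17, near the top of the scale, and did not pass (adjusted p = 0.0925). The binding proteins Igfbp1 (5.25 ± 0.27), Igfbp7 (5.07 ± 0.08) and Igfbp6 (4.56 ± 0.13) rose, and Igfbp5 fell by 1.14 ± 0.13. The other probe sets of Igfbp7 gave 0.08 and 2.03, and that of Igfbp5 gave -0.36. Both receptors fell, Igf1r by 0.40 ± 0.09 and Igf2r, which clears the Igf2 protein, by 0.93 ± 0.08. The RNA-binding proteins of the Igf2 transcript fell, with Igf2bp3 at 10.87 and 10.85 at day 8 and 9.18 and 9.36 at day 17 and a fall of 1.59 ± 0.09, and Igf2bp1 with one of 1.09 ± 0.13. Of 22 imprinted growth genes, 15 were lower and 3 higher, with a median of -0.40. Peg10 fell by 3.14 ± 0.27, Phlda2, which restrains placental growth, by 2.88 ± 0.23, Nnat by 2.19 ± 0.24 and Slc38a4 by 1.62 ± 0.11. Gatm, the first enzyme of creatine synthesis, rose by 4.67 ± 0.18, Cdkn1c, a cell cycle inhibitor, by 0.56 ± 0.10 and Sgce by 0.20 ± 0.07. The call of Sgce was kept without the day 8 KGF array and lost without any other of the 10 arrays, and the mean of its probe sets gave -0.25.

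Genes of the serosal lining and kidney had 12 of 20 higher, 3 lower and a median of 0.71. Msln (mesothelin) read 4.48 and 3.98 at day 8 and 9.24 and 9.70 at day 17 and rose by 5.25 ± 0.23 (SE, 37.9-fold, adjusted p = 1.95e-08). Upk3b, of mesothelium, read 9.62 and 9.48 at day 8 and 11.93 and 11.48 at day 17 and rose by 2.15 ± 0.14, and Muc16, a mucin of mesothelium, rose by 3.33 ± 0.28. Aldh1a2, which makes retinoic acid in mesothelium and mesoderm, read 4.28 and 4.33 at day 8 and 9.45 and 8.78 at day 17 and rose by 4.81 ± 0.16. Wt1 was present at day 8 and rose by 0.49 ± 0.11, a call lost without the day 17 control array. Cited1 (-1.61 ± 0.13), Podxl (-1.43 ± 0.12) and Sall1 (-1.29 ± 0.20) fell.

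Cartilage and bone genes had 6 of 30 higher (20%) and 8 lower (26.7%), shares near those of all genes. Col2a1 (-0.46 ± 0.17, adjusted p = 0.057) and Acan (-0.06 ± 0.19, adjusted p = 0.84), the main proteins of cartilage, did not pass. The chondrocyte factor gene Sox6 read 9.29 and 8.85 at day 8 and 7.25 and 7.0 at day 17 and fell by 1.95 ± 0.13, and Col9a1 fell by 2.51 ± 0.26. Hapln1, which links cartilage proteoglycans, fell by 2.07 ± 0.16. Mgp, described above, belongs to this list, and Scrg1 rose by 2.76 ± 0.24. Adipocyte genes had 7 of 17 higher and 1 lower, Fabp4 among the higher. The fatty acid translocase gene Cd36, which macrophages also express, read 3.72 and 3.13 at day 8 and 8.40 and 8.25 at day 17 and rose by 4.90 ± 0.15. Pparg, the master factor of fat cells, rose by 1.29 ± 0.19 and the lipase Lpl by 1.71 ± 0.08. Scd1, a desaturase, fell by 2.34 ± 0.36. Adipoq, the hormone of fat cells, lay near the bottom of the scale at 2.53 and 2.58 at day 8 and 2.72 and 2.82 at day 17 and did not pass (adjusted p = 0.872).

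Neuronal genes rose, with 18 of 30 higher, 1 lower and a median of 0.93. Dcx (doublecortin), of young neurons, read 3.27 and 3.13 at day 8 and 6.02 and 6.21 at day 17 and rose by 2.92 ± 0.20 (SE, 7.55-fold, adjusted p = 5.2e-07). The other 3 probe sets of Dcx gave smaller rises, from 0.25 to 1.31. Stmn2, of growing axons, read 7.16 and 6.61 at day 8 and 8.70 and 8.57 at day 17 and rose by 1.75 ± 0.13. Tubb3, the neuronal tubulin, rose by 2.08 ± 0.26, Rtn1 by 1.89 ± 0.17 and Map2 by 1.89 ± 0.19, although another probe set of Map2 gave -0.16. Isl1, a factor of motor neurons and of the heart field, read 8.80 and 8.66 at day 8 and 6.27 and 7.27 at day 17 and fell by 1.96 ± 0.23. Neural progenitor genes had 10 of 27 higher (37%) and 3 lower (11.1%), against 21.2% and 21.6% of all genes. After the second quantile normalisation these counts were 6 and 7. Zic1 read 4.06 and 3.37 at day 8 and 8.96 and 8.89 at day 17 and rose by 5.21 ± 0.18, and Fabp7, the fatty acid carrier of radial glia, rose by 3.79 ± 0.20. Pax6 (-0.06 ± 0.14, adjusted p = 0.776) and Sox1 (-0.07 ± 0.14, adjusted p = 0.756) did not pass. Irx3 fell by 1.30 ± 0.13 and Msi1 by 1.05 ± 0.14, although another probe set of Msi1 gave 0.12. Glial genes had 6 of 20 higher (30%) and 3 lower (15%). Aqp4, the water channel of astrocytes and of airway and stomach cells, read 2.84 and 2.52 at day 8 and 5.58 and 6.10 at day 17 and rose by 3.15 ± 0.28, while Gfap (-0.26 ± 0.19, adjusted p = 0.315) and S100b (0.23 ± 0.15, adjusted p = 0.25) did not pass. Erbb3 (1.55 ± 0.12) and Mbp (1.44 ± 0.11) also rose. The 3 that fell were Slc1a3 (-1.53 ± 0.11), Pmp22 (-0.62 ± 0.08) and Aldh1l1 (-0.43 ± 0.12). The other probe set of Erbb3 gave 0.105 and that of Aldh1l1 0.007. Among 17 neural crest and pigment cell genes, 6 were higher (35.3%) and 4 lower (23.5%), the latter near the share of all genes. Tfap2b (1.60 ± 0.20) and Mitf (0.94 ± 0.12) rose and Snai2 fell from 11.19 and 10.82 to 8.90 and 8.83, by 2.14 ± 0.10. Sox10, the crest factor, did not pass (-0.08 ± 0.13, adjusted p = 0.676).

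**Figure D3:**
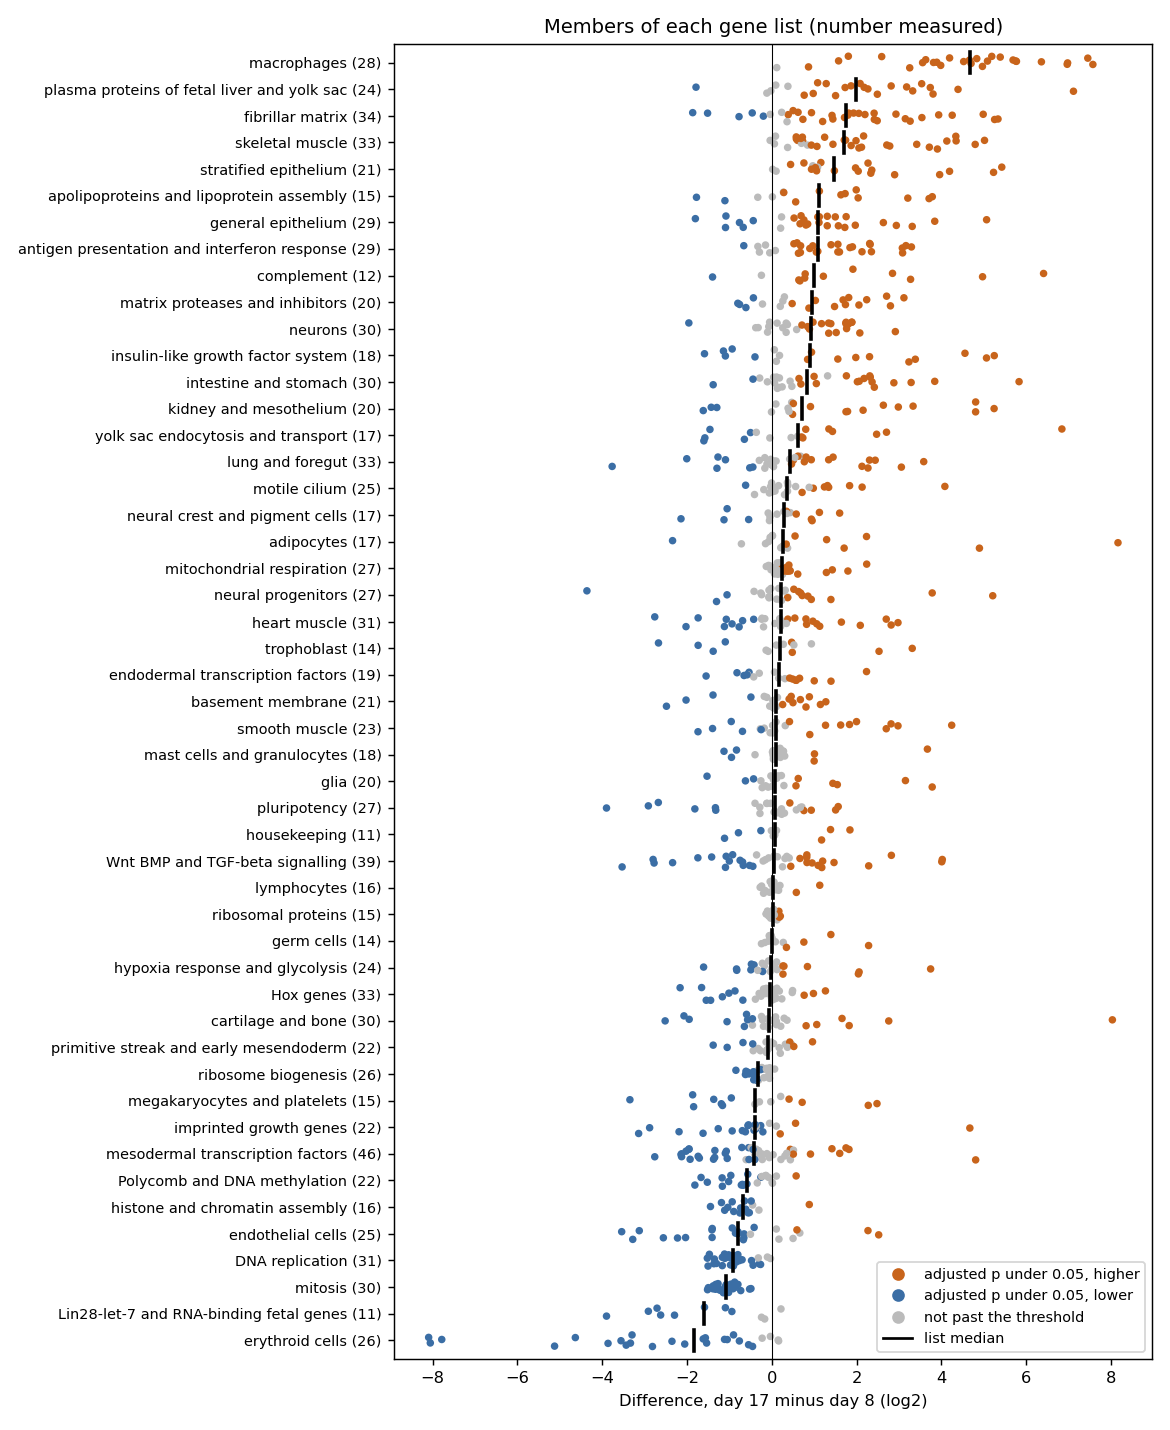
Difference from day 8 to day 17 (log2, mean of the 2 pairs) of each measured member of the 49 gene lists, ordered by list median (black bar). Orange and blue points passed as higher and lower, and grey points did not pass. The medians run from -1.83 for erythroid cells to 4.68 for macrophages.

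Signalling genes divided by ligand. Of 39 genes of Wnt, BMP and TGF-beta signalling, 14 were higher (35.9%) and 15 lower (38.5%), against 21.2% and 21.6% of all genes. Bmp4, which induces early mesoderm, read 10.24 and 10.65 at day 8 and 9.36 and 9.34 at day 17 and fell by 1.09 ± 0.10 (SE, 2.13-fold, adjusted p = 5.23e-06). Bmp5 read 10.03 and 9.77 at day 8 and 6.23 and 6.51 at day 17 and fell by 3.53 ± 0.16. Tgfb2 fell by 2.77 ± 0.14, Wnt2, of lung and heart mesenchyme, by 2.80 ± 0.14, and the secreted Wnt inhibitor Frzb by 2.34 ± 0.24. The activin subunit gene Inhbb rose by 4.02 ± 0.18, Gdf10 by 4.01 ± 0.19, Sfrp2, another Wnt inhibitor, by 2.82 ± 0.12, and Wnt4, of kidney and mesothelial tissue, from 6.94 and 7.02 to 9.19 and 9.34, by 2.29 ± 0.08. The other probe set of Inhbb gave 0.45. Hox genes, which pattern the body axis, had 3 of 33 higher (9.09%) and 8 lower (24.2%). Hoxb2 read 9.76 and 9.76 at day 8 and 8.13 and 8.07 at day 17 and fell by 1.65 ± 0.10, Hoxd9 fell by 1.54 ± 0.16, Hoxd1 by 2.16 ± 0.14 and Hoxb6 by 1.44 ± 0.20. Hoxa2 (1.27 ± 0.19), Hoxc4 (0.98 ± 0.15) and Hoxc13 (0.77 ± 0.16) rose.

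In metabolism, hypoxia response and glycolysis genes had 7 of 24 higher and 7 lower (29.2% each), against 21.2% and 21.6% of all genes. Car9, a carbonic anhydrase induced by hypoxia, read 3.74 and 3.58 at day 8 and 7.55 and 7.27 at day 17 and rose by 3.75 ± 0.16. Adm rose by 2.06 ± 0.10 and Egln3, an oxygen sensor, by 2.04 ± 0.10. Slc2a1, the main glucose transporter of embryonic cells, read 12.59 and 12.19 at day 8 and 10.73 and 10.84 at day 17 and fell by 1.61 ± 0.12, and hexokinase 2, Hk2, fell by 0.83 ± 0.08. Ldha read 11.97 and 12.17 at day 8 and 11.95 and 12.20 at day 17 and did not pass (adjusted p = 0.951). Of 27 genes of mitochondrial respiration, 13 were higher and 0 lower, with a median of 0.24. The largest rises were those of the muscle forms of cytochrome oxidase subunits, Cox6a2 (2.24 ± 0.12), Cox8b (1.80 ± 0.15) and Cox7a1 (1.43 ± 0.12), and of the coactivator Ppargc1a (1.29 ± 0.15). The common subunit gene Cox4i1 rose by 0.41 ± 0.06.

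The cell type label names embryonic stem cells, and the genes of that state differed in level and direction. Pou5f1, which encodes Oct4, read 5.61 and 5.79 at day 8 and 5.34 and 5.999 at day 17 and did not pass (adjusted p = 0.956). Nanog read 5.31 and 5.52 at day 8 and 5.70 and 6.55 at day 17 and did not pass (adjusted p = 0.207). Of 27 pluripotency genes, 5 were higher (18.5%) and 6 lower (22.2%), shares near the 21.2% and 21.6% of all genes. Sall4, a zinc finger factor of stem cells, read 9.20 and 9.34 at day 8 and 6.58 and 6.61 at day 17 and fell by 2.67 ± 0.21. Sox2, which foregut and neural tissue also express, read 7.64 and 7.39 at day 8 and 8.18 and 8.71 at day 17 and rose by 0.93 ± 0.20, and Klf4, which differentiating epithelium also expresses, rose by 1.57 ± 0.08. Dppa5a read 7.31 and 6.90 at day 8 and 8.31 and 8.91 at day 17 and rose by 1.51 ± 0.36, a call lost without the day 17 KGF array. Of 22 genes of the primitive streak, 3 were higher and 4 lower, or 1 and 8 after the second quantile normalisation, and 4 in all passed without the day 8 control array. The 3 higher and 4 lower were 13.6% and 18.2% of that list, below the shares of all genes. Mixl1 (-0.27 ± 0.17, adjusted p = 0.245) and Eomes (-0.13 ± 0.14, adjusted p = 0.497) did not pass, and Cdx2, of posterior mesoderm and hindgut, fell by 1.38 ± 0.26. Nodal (-1.05 ± 0.21), Pdgfra (-0.68 ± 0.06) and Foxh1 (-0.45 ± 0.14) fell too. Lefty1 (0.96 ± 0.12), Dll3 (0.52 ± 0.16) and Cer1 (0.43 ± 0.135) rose.

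The difference between the days depended on KGF for few genes. The test asks whether the KGF effect at day 17, read with and without DCI, differs from that at day 8, and 147 of 18193 genes (0.808%) passed, 65 higher and 82 lower. Bpifa1, a secreted protein of the upper airway, read 3.05 and 3.38 at day 8 and 6.51 and 10.38 at day 17. Its difference was 3.46 in the control pair and 7.0 in the KGF pair, and the dependence was 3.08 ± 0.40 (SE, adjusted p = 0.0072). Cbr2, a carbonyl reductase of club cells, read 4.49 and 3.76 at day 8 and 8.59 and 11.004 at day 17, with a dependence of 2.83 ± 0.23 (SE, adjusted p = 0.000452). Both genes rose in both pairs and more with KGF. Dynlrb2 read 3.40 and 2.81 at day 8 and 6.02 and 8.36 at day 17, with 2.76 ± 0.25 (SE, adjusted p = 0.000641), and Cyp2f2 read 4.21 and 3.61 at day 8 and 9.92 and 11.51 at day 17, with 2.10 ± 0.29 (SE, adjusted p = 0.00804). Cyp2f2 rose in both pairs as well. In the other direction, Chil1, a chitinase-like protein of macrophages and epithelium, read 3.998 and 5.54 at day 8 and 7.51 and 7.18 at day 17, with -1.79 ± 0.15 (SE, adjusted p = 0.000532). There the day 8 KGF value lay above the day 8 control value, and the day 17 values were close. Net1 read 7.60 and 9.28 at day 8 and 9.30 and 9.20 at day 17, with -1.54 ± 0.17 (SE, adjusted p = 0.00291). The calls of Bpifa1, Cbr2, Dynlrb2, Cyp2f2, Chil1 and Net1 were lost without a mean trend in the variances, which called 0 of 18193 genes at adjusted p under 0.05 in limma (1728 at an unadjusted p under 0.05). With the dap signal as a covariate Cyp2f2 kept its call, Net1 reversed and the other 4 lost theirs.

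**Figure D4:**
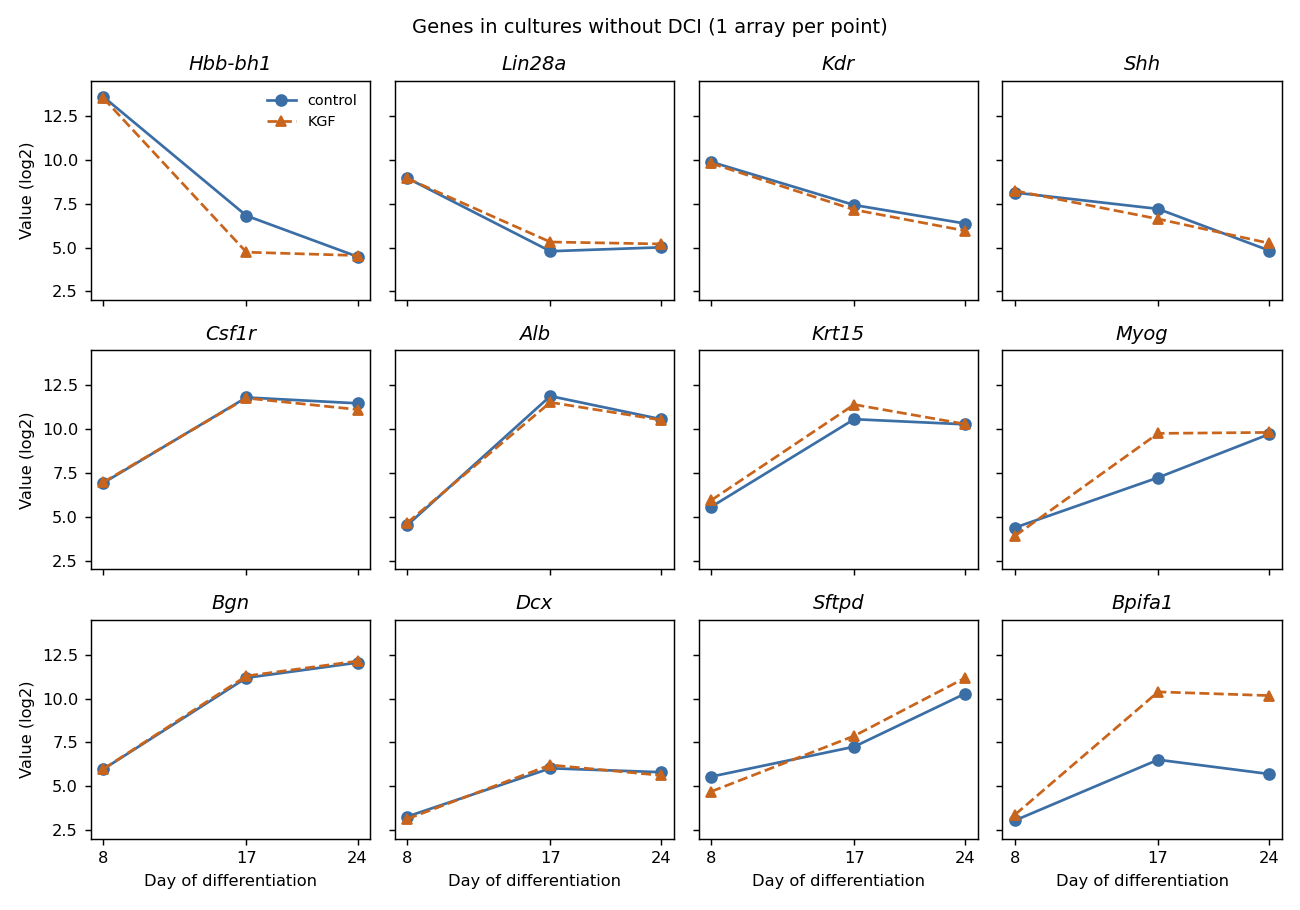
Log2 values of 12 named genes at days 8, 17 and 24 in cultures without DCI, control (blue circles) and KGF (orange triangles), 1 array per point. Hbb-bh1 and Lin28a fall by day 17 and Csf1r and Bgn rise, while Bpifa1 reads 10.38 with KGF and 6.51 in the control at day 17.

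The values of day 24 without DCI are set beside those of day 17, which both spans share, and no test is made of them here. The median of the mitosis list read 9.41 and 9.32 at day 8, 8.16 and 8.15 at day 17 and 6.86 and 6.74 at day 24. For macrophages it was 4.60 and 4.81, then 9.56 and 9.57, then 9.94 and 9.42. The erythroid median went from 7.54 and 7.56 to 4.86 and 4.66, then 4.57 and 4.49. That of skeletal muscle read 4.70 and 4.60 at day 8 and 5.55 and 6.98 at day 17, then 6.97 and 7.06 at day 24, where the control and KGF values were close. Single genes differed in what followed. Saa3 read 13.48 and 13.38 at day 24 and Alb 10.57 and 10.52. Hp, at 8.30 and 8.34 on day 17, read 11.33 and 11.22 at day 24, and Ltf, at 7.78 and 8.66, read 11.68 and 11.80. Dcx read 5.80 and 5.62 and Myog 9.72 and 9.82, and the control and KGF values of Myog were close on that day.

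**Figure D5:**
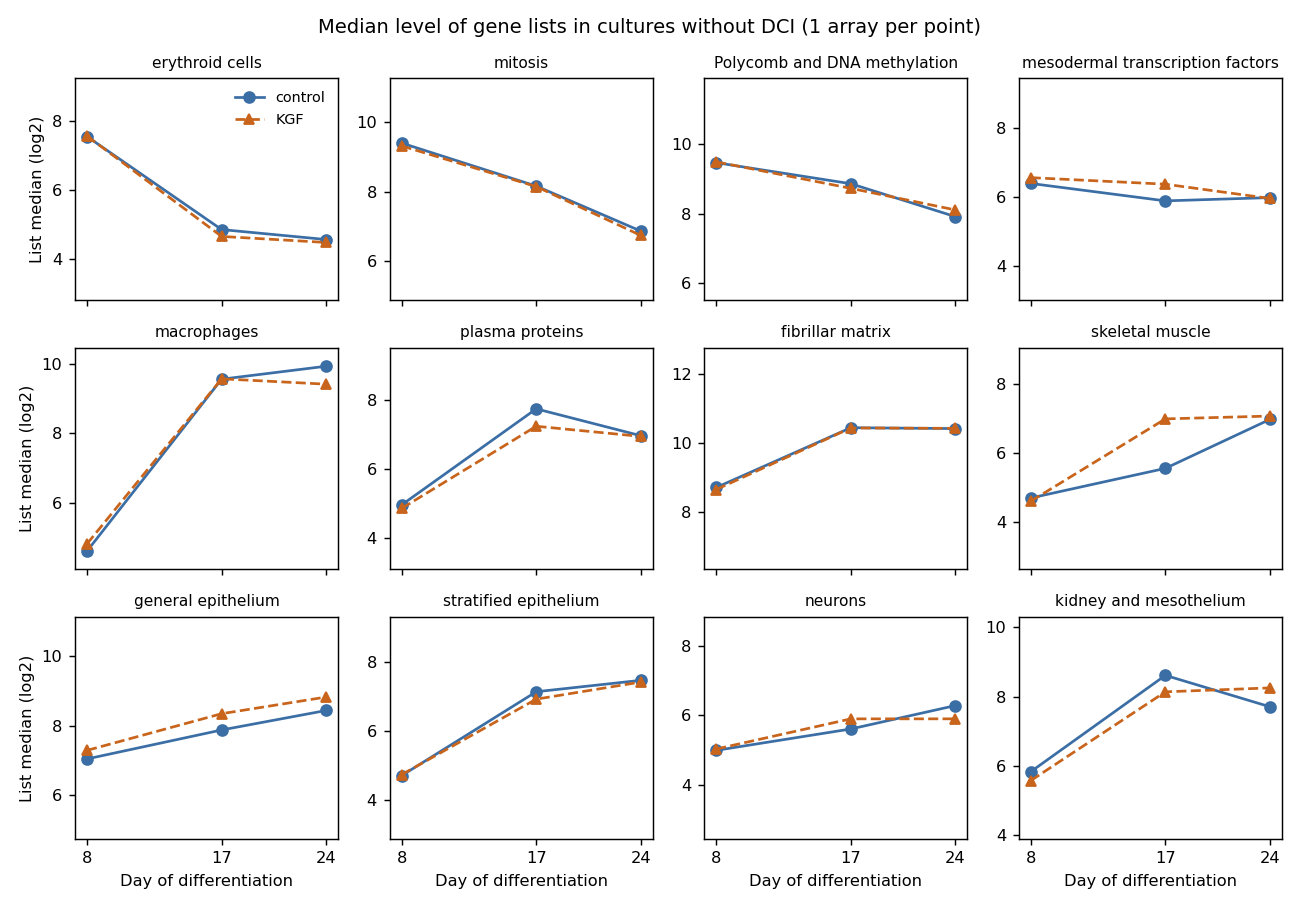
Median log2 level of the members of 12 gene lists at days 8, 17 and 24 in cultures without DCI, with 1 array per point and panels of equal height in log2 units. The mitosis median falls at both steps, and the skeletal muscle medians of control and KGF cultures differ at day 17 (5.55 and 6.98) and lie close at day 24 (6.97 and 7.06).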

How the data were processed

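Biotin-labelled RNA from 10 cultures was read on Affymetrix arrays, per the labels' protocols. The deposited values are log2 levels of 45101 probe sets. They were computed with Bioconductor, per the labels, and the method was RMA, according to the submitters' processing notes. RMA subtracts background, gives arrays a common distribution and summarises probes, so that differences are relative to the other genes and those of dim genes are understated. Neither its version nor a genome build is stated there.

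The platform annotation gave the gene names: 34945 probe sets had 1 gene symbol, 932 had several and 9160 none, and 64 were controls. Each of 18193 genes was read from the probe set with its highest average on the 10 arrays, without a filter. Among 190 named genes that passed and had several probe sets, 93 had one with under 0.5 times the difference or of opposite sign, and 25 one of opposite sign. Only some of these are pointed out gene by gene above. The model in limma 3.58.1 (R 4.3.3) had terms for day, KGF and DCI at day 17 and at day 24 over all 10 arrays, with 4 residual degrees of freedom. Its contrast equals the mean of the 2 matched pair differences. KGF dependence used a KGF term for each day, with 2 residual degrees of freedom and a median SE of 0.21. Variances were moderated with a mean trend, and p-values were adjusted by Benjamini-Hochberg. Nothing says that the arrays came from separate derivations, and no condition had a replicate. The residual spread was therefore how far the difference between control and KGF cultures varied over the day and DCI conditions, day 24 included. For KGF dependence it was how far that difference varied with DCI at days 17 and 24. The p-values measure only this spread and no spread between replicate cultures. Cym had an SE of 0.57, though its pairs gave 8.58 and 8.40. At day 24 Cym read 11.87 with DCI and 8.75 with KGF and DCI.

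The members and lists were chosen with earlier results of these data known. Of 1190 genes on 49 lists, 1096 were measured. Named were the 15 largest rises and falls that passed with the same sign in both pairs and reached the median of all values, the first 3 genes of each list and up to 4 largest changes each way, and 5 genes each way for KGF dependence. The model was tested on simulated data. Promoters came from RefSeq (GRCm38.p6). Figures were drawn with matplotlib 3.10.9.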

Additional observations from a re-analysis of the deposited data

Results flagged for a closer look

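The rise or fall from day 8 to day 17 differed between control and KGF cultures, by a test of the difference itself, for 147 genes. The 5 largest in each direction are given, each as the KGF effect at day 17 minus that at day 8. Higher with KGF were Bpifa1 at 3.08 ± 0.40 (SE, adjusted p = 0.0072), Cbr2 at 2.83 ± 0.23 (SE, adjusted p = 0.000452), Dynlrb2 at 2.76 ± 0.25 (SE, adjusted p = 0.000641), Wfdc18 at 2.51 ± 0.15 (SE, adjusted p = 9.31e-05) and Cyp2f2 at 2.10 ± 0.29 (SE, adjusted p = 0.00804). Wfdc18, a secreted whey acidic protein, read 5.46 and 4.85 at day 8 and 5.94 and 7.79 at day 17, so that the KGF culture of day 17 stood above the other arrays. Lower were Chil1 at -1.79 ± 0.15 (SE, adjusted p = 0.000532), Hbb-bh1 at -1.72 ± 0.30 (SE, adjusted p = 0.0272), Crct1 at -1.58 ± 0.22 (SE, adjusted p = 0.0085), Aoc1 at -1.55 ± 0.22 (SE, adjusted p = 0.00826) and Net1 at -1.54 ± 0.17 (SE, adjusted p = 0.00291). Crct1, a cornified envelope gene, read 5.07 and 5.14 at day 8 and 6.83 and 5.15 at day 17, and the day 17 control stood above the rest. Aoc1, the diamine oxidase, read 4.17 and 5.09 at day 8 and 6.93 and 6.32 at day 17. The day 8 part of each difference rests on the control array whose spike-in control signals stood apart. Of these 10 genes, 9 lost the call or reversed with the dap signal as a covariate. The slope of that covariate came only from the day 17 and day 24 arrays, where the dap signals of a pair lay close. They were 1.61 and 1.82 at day 17 without DCI, against 4.80 and 1.75 at day 8. The refit, which called 164 genes in all, extends that slope and cannot show what the day 8 control array contributed. Each of the 10 lost the call without a mean trend, and Bpifa1, Cyp2f2 and Hbb-bh1 also both with a robust prior and with the mean of the probe sets.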

How the results depend on the processing

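The count of 7799 changed genes lay between 6284 and 8910 under the alternatives that kept a test at an adjusted p alone, from leaving out the day 17 control array to a threshold of 0.10. It was 2361 with a 2-fold size in addition and 1945 for genes at least 2-fold different in both pairs, with no test. Leaving out 1 array at a time gave 6284 to 7708. A second quantile normalisation moved the median difference from -0.01 to -0.11 and gave 3537 higher and 4894 lower. The KGF dependence, 147 genes, was 0 without a mean trend, 75 with the mean of the probe sets and 294 at an adjusted p under 0.10. It ranged from 129 to 318 when 1 array was left out, with 318 without the day 17 DCI array and 313 without the day 17 array with both treatments. It could not be fitted without a day 8 array. Of 342 named genes that had passed, 299 kept direction and call in each of 21 alternatives and 43 lost the call in at least 1. Sgce reversed to -0.25 with the mean of its probe sets. With the dap signal as a covariate the KGF dependence reversed to 3.79 for Hbb-bh1 and 1.16 for Net1. The count of called members moved by over 1.5 times in at least 1 alternative for 18 of 49 lists, mostly with the lowest 40% of genes by mean over all arrays removed, which tests fewer genes and left 9 erythroid genes of 22. No paired analysis was possible by replicate number, because the labels give none. The matching by KGF status is in the model, and 7496 genes passed without a KGF term.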

Other observations

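Of 14 germ cell genes, 4 were higher (28.6%) and 0 lower, or 2 and 1 after a second quantile normalisation, a share called below the 42.9% of all genes. Dazl, an RNA-binding protein of germ cells, read 3.23 and 2.98 at day 8 and 5.30 and 5.48 at day 17 and rose by 2.29 ± 0.21, and Stra8, which retinoic acid induces at meiotic entry, read 5.23 and 4.68 at day 8 and 6.32 and 6.39 at day 17 and rose by 1.40 ± 0.18. Both read lower at day 24, at 3.77 and 3.33 for Dazl and 5.48 and 5.56 for Stra8. Ddx4, the germ cell helicase, did not pass (0.27 ± 0.21, adjusted p = 0.332). Of 14 trophoblast genes, 4 were higher and 4 lower (28.6% each), or 2 and 6 after that normalisation, against 21.2% and 21.6% of all genes. Plac1 read 8.75 and 8.48 at day 8 and 5.90 and 5.99 at day 17 and fell by 2.67 ± 0.14, Gata3 fell by 1.09 ± 0.21, and Elf5, of trophoblast and of mammary and lung epithelium, rose by 2.53 ± 0.22.

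Genes often used as constant references did not all hold still. Of 11 such genes, 3 were higher and 3 lower (27.3% each), shares near the 21.2% and 21.6% of all genes. Actb read 13.65 and 13.65 at day 8 and 13.71 and 13.57 at day 17 and did not pass (adjusted p = 0.921). Hprt rose from 9.36 and 9.39 to 10.56 and 10.54, by 1.18 ± 0.07, Gusb, a lysosomal enzyme, rose by 1.39 ± 0.13, and Tfrc, the transferrin receptor that red cell precursors carry at high density, fell by 1.11 ± 0.07. Of 15 ribosomal protein genes, 3 were higher and 0 lower (2 and 1 after a second quantile normalisation), with differences between -0.13 and 0.20.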
